A study of Mus musculus with 8 samples.

Results

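Purified microglia were set against the total cells of the same mouse model, 5XFAD, for lactylation of histone H4 at lysine 12 (H4K12la). The comparison takes 4 of the 8 libraries of the series, 2 of microglia and 2 of total cells, all from 5XFAD brain, and they were chosen by their titles, with no WT library among them. 5XFAD mice model Alzheimer disease through mutated human transgenes, APP among them, driven in neurons by a mouse Thy1 promoter, and all 4 libraries share that genotype. Total cells are the dissociated brain without cerebellum after removal of myelin debris. Microglia are the cells that magnetic beads against CD11b, a surface protein of myeloid cells, took from such a suspension, so that macrophages and other CD11b-bearing leukocytes of the brain could be among them, and the total cells hold microglia as well. The labels give no age or sex, and leave unsaid if separate animals gave the 2 libraries of a preparation, so that p-values measure only the spread between these samples.

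H4K12la is a lactyl group on a lysine of the histone tail. It is made from lactate, the end product of glycolysis, and histone lactylation is known mostly from active promoters and enhancers. Microglia are the resident macrophages of the brain. Around amyloid plaques they turn from a homeostatic state, marked by purinergic and fractalkine receptors, to a disease-associated state that depends on the receptor TREM2 and its adaptor TYROBP, and inflammatory activation of macrophages shifts their metabolism towards glycolysis. The series looked for the genes that the mark occupies. It used CUT&Tag, in which an antibody tethers a transposase to the mark so that the DNA beside it is cut out and sequenced.

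The 4 peak lists held 29947 and 41783 peaks in microglia 1 and 2, and 32967 and 22807 in total cells 1 and 2. They give positions and a score but no reads, so depth is unknown, and a missing peak means only that none was listed. A gene was counted in a list when a peak shared 1 base or more with its gene-end window, the 2 kb on either side of the annotated start and end of the gene. A gene or region was called microglia-only when both microglia lists and neither total cell list held it, and total-cell-only for the reverse. The score percentile of a peak is its rank among the peaks of its own list, with 100 the highest. Gene coordinates are those of GRCm38. With 2 libraries against 2, the smallest p of the exact two-sided permutation test is 0.333, so no difference between the preparations can pass 0.05 here.

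The start regions of 6 genes show the sequences behind the contrast, 3 from microglia-only and 3 from total-cell-only genes of the lists below. Each is the 250 bases before a RefSeq start of the gene (GRCm38.p6), 5′ to 3′ on the strand of the gene. That start can lie inside the outer annotated end. The stretches of Ptprc and Dnm3 lie wholly inside their genes, and that of Map2 in part. A peak of both lists of its preparation, and of neither other list, lay over each stretch. Ptprc (chr1:138175127-138175376, minus strand) encodes CD45, a phosphatase on all leukocytes. Hcst (chr7:30419855-30420104, minus strand) encodes the signalling adaptor DAP10 and Was (chrX:8090492-8090741, minus strand) an actin regulator of blood cells. Dnm3 (chr1:162478035-162478284, minus strand) encodes a dynamin of synapses, Map2 (chr1:66175079-66175328, plus strand) a protein of neuronal dendrites and Tfrc (chr16:32608646-32608895, plus strand) the transferrin receptor. Capitals mark GGAAGT or its reverse ACTTCC, the core that ETS transcription factors bind, PU.1 of the myeloid lineage among them.
Ptprc: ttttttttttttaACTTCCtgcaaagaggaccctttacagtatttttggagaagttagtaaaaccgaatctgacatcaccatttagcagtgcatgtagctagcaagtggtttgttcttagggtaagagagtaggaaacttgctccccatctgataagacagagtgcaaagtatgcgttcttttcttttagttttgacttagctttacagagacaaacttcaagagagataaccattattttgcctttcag
Hcst: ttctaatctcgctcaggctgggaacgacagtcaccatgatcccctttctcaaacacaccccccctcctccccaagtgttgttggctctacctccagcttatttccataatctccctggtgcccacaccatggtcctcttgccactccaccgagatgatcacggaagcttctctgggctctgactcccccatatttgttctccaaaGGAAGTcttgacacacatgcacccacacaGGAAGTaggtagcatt
Was: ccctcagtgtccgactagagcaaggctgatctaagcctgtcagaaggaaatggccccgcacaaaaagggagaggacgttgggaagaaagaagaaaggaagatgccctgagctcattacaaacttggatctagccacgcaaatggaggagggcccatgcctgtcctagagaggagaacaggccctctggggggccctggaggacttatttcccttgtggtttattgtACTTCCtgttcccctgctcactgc
Dnm3: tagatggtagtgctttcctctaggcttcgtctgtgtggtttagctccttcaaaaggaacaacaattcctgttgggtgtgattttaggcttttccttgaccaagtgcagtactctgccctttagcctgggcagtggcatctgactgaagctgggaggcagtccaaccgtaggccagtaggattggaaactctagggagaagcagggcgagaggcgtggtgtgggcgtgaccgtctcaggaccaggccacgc
Map2: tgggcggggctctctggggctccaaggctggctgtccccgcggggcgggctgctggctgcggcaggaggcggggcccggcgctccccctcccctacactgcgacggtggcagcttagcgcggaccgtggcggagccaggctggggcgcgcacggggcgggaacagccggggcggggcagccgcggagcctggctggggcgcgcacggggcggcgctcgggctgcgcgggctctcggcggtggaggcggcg
Tfrc: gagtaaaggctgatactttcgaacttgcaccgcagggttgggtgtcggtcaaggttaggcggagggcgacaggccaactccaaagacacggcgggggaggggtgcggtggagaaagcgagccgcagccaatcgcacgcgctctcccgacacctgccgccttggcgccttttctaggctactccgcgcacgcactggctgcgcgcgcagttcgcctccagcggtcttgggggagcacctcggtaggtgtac

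The 3 microglia-only sequences held that core 1, 2 and 1 times, in the order printed, and the 3 total-cell-only sequences did not hold it. Their G and C content was 36.8%, 52.4% and 53.6% against 54.0%, 81.2% and 64.8%, and they held 2, 4 and 4 CpG dinucleotides against 7, 34 and 25. These 6 stand for themselves. Over the promoters (from 250 bases before to 50 after the start) of the 753 microglia-only genes with a peak within 2 kb of the start in both lists, 30.4% held the core on either strand, against 18.8% of the 261 total-cell-only genes of that kind, 28.3% of the 4736 genes present in all 4 lists and 23.0% of all 17492 genes with a RefSeq promoter. The microglia-only share was thus near that of genes common to both preparations. The longer PU.1 form GAGGAAGT, which contains the core, stood in 3.72% and 3.83% of the one-preparation promoters and 2.57% of all. CACGTG, an E-box, stood in 12.6% and 5.36%, against 8.97% for genes of all 4 lists and 7.61% of all. CCGGAAGT, another ETS form that contains the core, stood in 7.70% and 1.92%, against 7.39% and 4.26%. Its microglia-only share was thus also near that of genes common to both preparations. The total-cell-only shares of the E-box and CCGGAAGT rest on 14 and 5 of 261 promoters. The median G and C content was 58.8% in both one-preparation groups and 55.6% over all promoters. A match is a string of letters and does not show that a factor was bound.

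Microglia and total cells shared most marked genes, and more genes were marked in microglia alone than in total cells alone when all peaks were used. All 4 lists marked the ends of 5843 (26.7%) of 21887 protein-coding genes, and no list those of 9808 (44.8%). Microglia-only genes numbered 1255 (5.73%) and total-cell-only genes 412 (1.88%). With the 22807 highest-scoring peaks of each list, which makes the lists equally long, the numbers were 837 (3.82%) and 870 (3.97%), so the surplus of microglia-only genes was present with all peaks and absent at equal length. Of the 1255 microglia-only genes, 645 (51.4%) were called in both ways, and they made up 77.1% of the 837. Of the 412 total-cell-only genes, 344 (83.5%) were, and they made up 39.5% of the 870. Equal length kept every peak of total cells 2. The lowest scores left were 51 and 89 in microglia 1 and 2, and 43 and 20 in total cells 1 and 2. By construction, genes called only at equal length had a gene-end peak of the other preparation in its full lists.

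**Figure D1:**
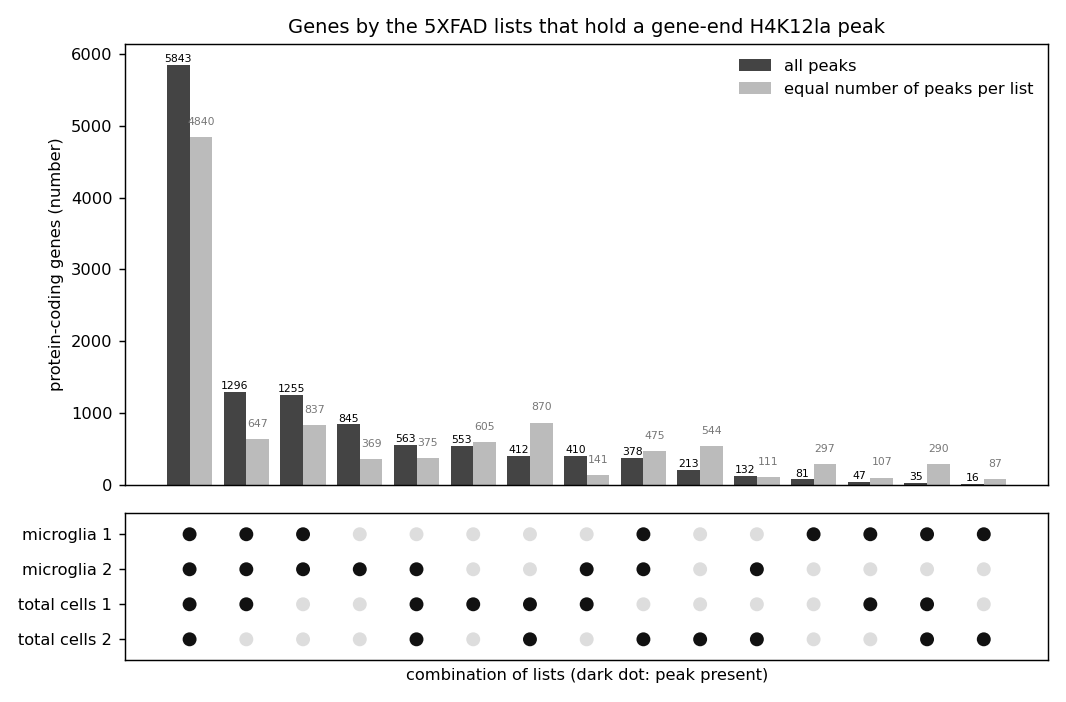
Number of protein-coding genes (vertical axis) for each combination of the 4 lists (dark dots mark lists that hold a gene-end peak), with all peaks in dark bars and the 22807 highest-scoring peaks of each list in light bars. Genes of all 4 lists are the tallest pair, 5843 and 4840, and the 1255 microglia-only genes fall to 837 while the 412 total-cell-only genes rise to 870 at equal list length.

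Many genes stood in 1 list alone or were missing from 1 list alone. As the plot of list combinations shows, 845 genes were found only in microglia 2, the longest list, and 81 only in microglia 1, 553 only in total cells 1 and 213 only in total cells 2. Another 1296 genes were in every list but total cells 2, the shortest. The gene counts therefore depended on single libraries, and dropping a library, which loosens the rule, gave 2100 microglia-only genes without microglia 1 and 2551 without total cells 1. Total-cell-only genes numbered 975 without microglia 2, 625 without total cells 1 and 965 without total cells 2.

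Merged regions, in which overlapping peaks of the 4 lists were joined, gave the same order at both lengths under the rule that both lists of a preparation hold the region. Of 59006 regions, 9852 (16.7%) were microglia-only, 3267 (5.54%) total-cell-only and 10848 (18.4%) present in all 4 lists. At equal list length there were 5998 microglia-only (14.7%) and 3870 total-cell-only regions (9.47%) among 40848. Regions of a single list ran the other way there, with 2361 and 2420 in microglia 1 and 2 alone. Total cells 1 and 2 alone had 5198 and 5602. The part of replicate agreement in the microglial surplus was not tested. Without microglia 1 the microglia-only count was 20406, and the total-cell-only count was 4996, 7027 and 12124 without microglia 2, total cells 1 and total cells 2. Microglia-only regions had a median width of 812 bp and covered 9.01 Mb in all, total-cell-only regions 416 bp and 1.51 Mb, and regions of all 4 lists 1206 bp and 14.1 Mb. Gene-end windows held 21.2% of microglia-only and 22% of total-cell-only regions, against 44.7% of regions in all 4 lists. The other one-preparation regions lay mostly inside gene bodies, 53.8% in microglia and 59.6% in total cells, and 25% and 18.4% lay elsewhere.

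High-scoring peaks were found again across preparations far more often than low-scoring ones. Each list was cut by score into 4 groups of equal size. In the lowest group of microglia 1, 29.7% of peaks shared a base with a peak of total cells 1, and in the highest group 83.8%. For microglia 2 against total cells 2 the shares were 12.9% and 67.9%. Between replicates, 93.9% of all microglia 1 peaks were found in microglia 2, and 65.1% of microglia 2 peaks in microglia 1. In total cells, 71.8% of the peaks of list 2 were found in list 1 and 48.6% the other way. Total cells 1 overlapped microglia 2 in 61.9% of its peaks, more than it overlapped its own replicate, which has the shortest list. Wider peaks and longer lists raise such shares.

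**Figure D2:**
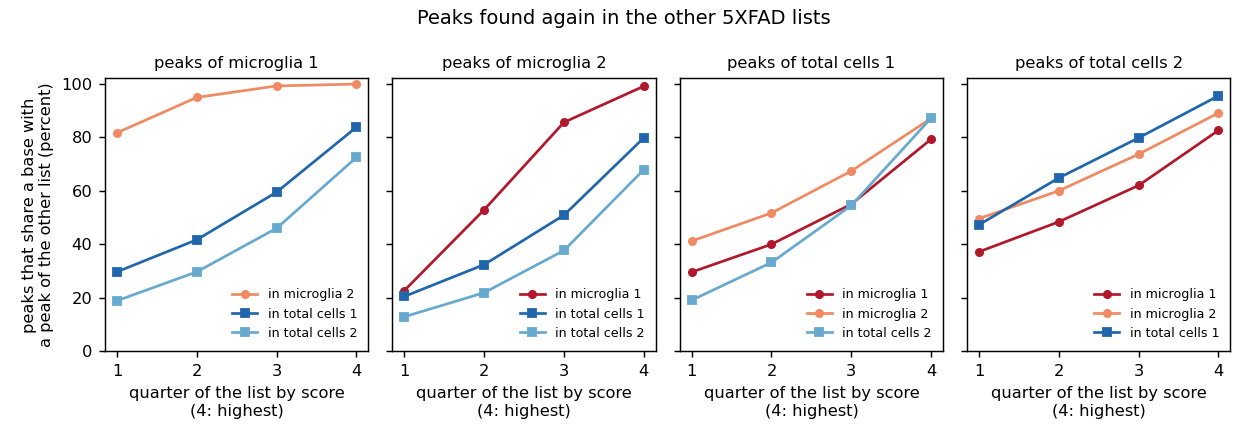
Share of the peaks of each list (panels) that share a base with a peak of each other list (lines), by score group, from 1 (lowest) to 4 (highest), each group holding an equal number of peaks. Every line rises with the score, for example from 29.7% to 83.8% for microglia 1 peaks in total cells 1.

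Microglial peaks were wider. Median widths were 629 and 735 bp in microglia and 366 and 312 bp in total cells, so the groups did not overlap. The means were 682 ± 75 and 339 ± 38.2 bp (SD, n = 2), a difference of 343 bp (exact two-sided permutation p = 0.333). At equal list length the medians were 728 and 1011 against 435 and 312 bp. The narrowest peak listed was 279 and 289 bp in microglia and 195 and 177 bp in total cells, so the lists also differ in the smallest peak they contain, and the part of fragment length or of peak calling in the width difference was not tested. Peaks covered 22.1 and 36.3 Mb in microglia and 14.8 and 8.61 Mb in total cells, means of 29.2 ± 10 and 11.7 ± 4.35 Mb (SD, n = 2, exact permutation p = 0.333). Without microglia 2 that difference of 17.5 Mb was 10.4 Mb. The share of peaks at gene ends was 30.9% and 29.5% in microglia and 29.5% and 33.2% in total cells, and these ranges met (exact permutation p = 0.667). Among the higher-scoring 50% of each list the shares no longer met, at 33.4% and 33.2% against 38.1% and 42.6% (exact permutation p = 0.333).

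Genes that mark microglia and macrophages as a class separated the preparations by 51.7 percentage points in the share marked, taken above the share of all genes. With all peaks this was the widest difference of the 21 lists. At equal list length (52.3) and without microglia 2 (49.5) the list of TREM2 and Fc receptor signalling was wider, at 52.7 and 49.9. Of 24 such genes, 20 and 23 had a gene-end peak in microglia and 7 and 8 in total cells, and 12 were microglia-only, set against 5.73% of all genes. At equal list length 11 were, beside 3.82% of all genes. The total-cell-only count was 0 with either set of peaks. The share of the list above the share of all genes was 44.6 ± 3.12 points in microglia and -7.02 ± 8.01 in total cells (SD, n = 2, exact permutation p = 0.333). Neuronal markers ran the other way but were rarely marked, with 3 and 5 of 30 in microglia and 7 and 6 in total cells, and 19 in no list. The labels of the microglia lists therefore match the markers of the class, while the total cell lists hold gene-end peaks at few markers of neurons, astrocytes and oligodendrocytes. Snap25, Tubb3, Aqp4 and Mobp were in no list, whereas Map2 and Camk2g were total-cell-only and the astrocyte gene Aldh1l1 and the oligodendrocyte gene Cnp were in all 4.

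**Figure D3:**
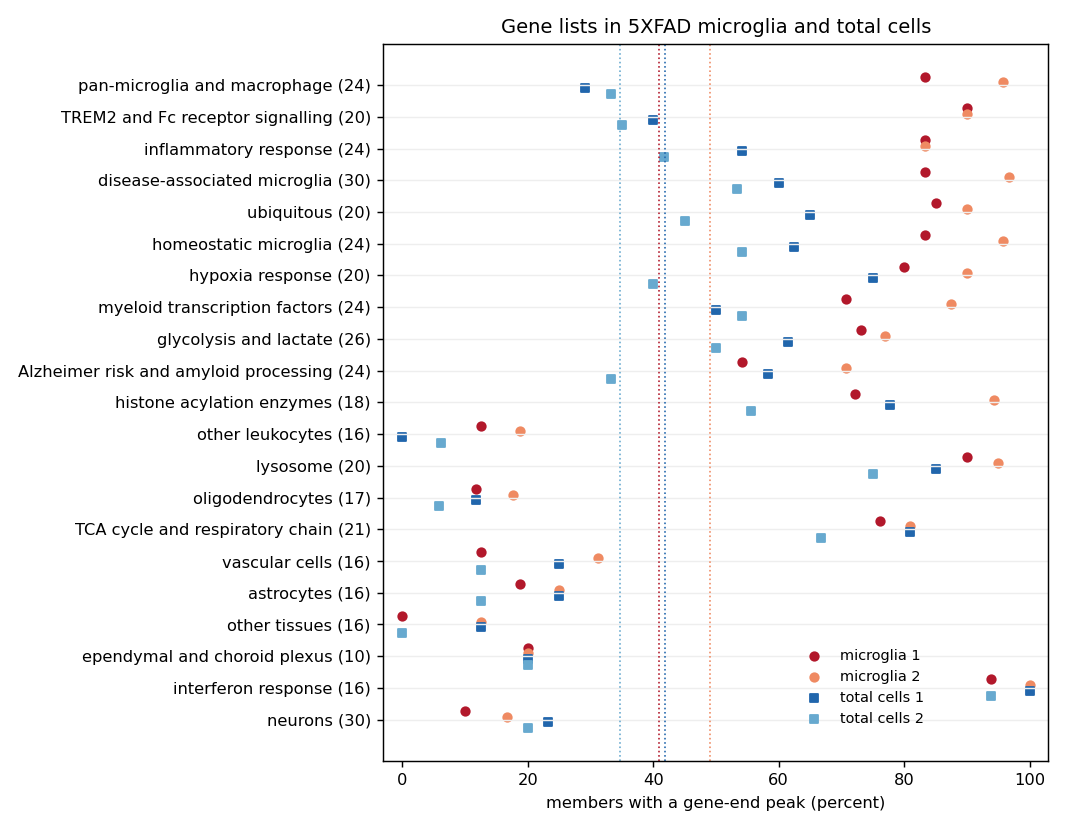
Percent of the members of each of 21 gene lists (rows, number of members in brackets) with a gene-end peak in microglia (circles) and total cells (squares), and for all genes (dotted lines in the colour of the list). For the pan-microglia and macrophage row the circles stand at 83.3% and 95.8% and the squares at 29.2% and 33.3%, while neurons and the other brain cell types lie left of all 4 dotted lines.

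Ptprc (gene 19264, chr1:138062859-138175756) was marked along its body in microglia. Microglia 1 held 6 peaks and microglia 2 held 16, and the total cell lists held 0. The best gene-end peak stood at percentile 95.4 and 88.9, and peaks covered 3443 and 10238 bp of the body. C1qb, a chain of the complement starter C1q, had a peak over its start in both microglia lists, at chr4:136885710-136886691 in microglia 1 (percentile 83.0) and chr4:136885690-136887225 in microglia 2 (79.4). The total cell lists had no peak in or within 2 kb of that gene. Ncf1, which helps phagocytes assemble their NADPH oxidase, stood at 86.9 and 91.8, Aif1, the macrophage antigen IBA1, 61.5 and 62.6, and Coro1a, an actin-binding protein of leukocytes, 68.4 and 53.5. Itgam, which encodes CD11b, the bead target, was also microglia-only, at 67 and 78.3, but total cells had peaks inside its body (548 and 384 bp) and its call was kept in 3 of 8 other ways of counting. Laptm5 and Ly86 had a gene-end peak in all 4 lists, and Cybb, another oxidase subunit, in none. Microglia 2 did hold 3 peaks inside Cybb, over 1183 bp, and the other lists held 0. A peak there lay within 2 kb of a RefSeq start, outside the gene-end window.

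**Figure D4:**
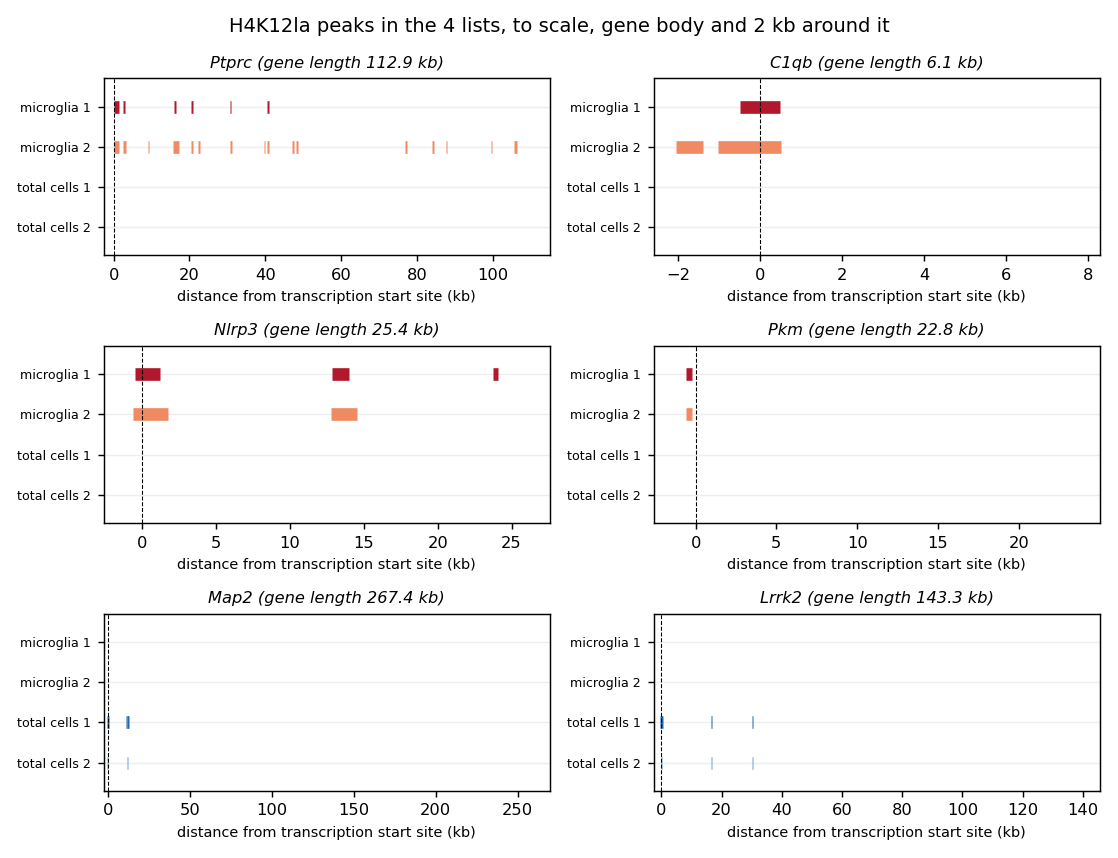
Peaks of each list (rows) along 6 genes, drawn to scale against the distance from the transcription start site in kb, over the gene body and 2 kb around it. Ptprc, C1qb, Nlrp3 and Pkm hold peaks in microglia alone, 6 and 16 of them at Ptprc, and Map2 and Lrrk2 in total cells alone.

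Homeostatic microglial genes were marked in both preparations. Of 24, 20 and 23 had a gene-end peak in microglia, 15 and 13 in total cells, and 9 in all 4 lists. P2ry12, the purinergic receptor that senses ATP, was among these, at percentile 94.5 and 88.5 in microglia and 75.5 and 59.3 in total cells, as was Csf1r, the receptor of the survival signal CSF1, at 89.4, 87.7, 83.3 and 89.8. P2ry13, a related purinergic receptor, was also in all 4. The microglia-only members were 4 (16.7%, against 5.73% of all genes), namely Siglech, a lectin receptor (31.3 and 59.8), Selplg, the P-selectin ligand (58.0 and 66.4), the lysophospholipid receptor Gpr34 (66.5 and 8.89) and the fructose transporter Slc2a5 (5.42 and 39.2). Gpr34 and Slc2a5 lost the call at equal list length. The covered bases of the body had list medians of 1950 and 3439 bp in microglia and 478 and 215 bp in total cells, against 0, 231, 0 and 0 bp over all genes.

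Disease-associated genes followed the same order. Of 30, 25 and 29 were marked in microglia and 18 and 16 in total cells, and 14 in all 4. Tyrobp, the adaptor of TREM2, had one of the highest-ranked peaks, at percentile 98.7 and 99.1 in microglia, 1852 and 1890 bp wide, and 65.3 and 36.0 in total cells, 240 and 276 bp wide. Axl, a receptor for apoptotic cells, and Lpl, lipoprotein lipase, were in all 4 lists. At Axl the total cell peaks covered 0 bp of the body and lay more than 2 kb from its RefSeq start. The microglia-only members were 6 of 30, against 5.73% of all genes, namely Cst7, a protease inhibitor, the tetraspanin Cd9, Cd52, the chemokine Ccl6, the growth factor Igf1 and the lysosomal protein Grn. Ccl6 reached 68.4 and 63.3 and Igf1 41.7 and 48.3. The peaks behind Cd52 were not in a microglia-only region, and Cst7 and Grn lost the call at equal length. Trem2 itself and Apoe, picked here after their values were seen, lacked a gene-end peak in total cells 2 only. Trem2 stood at 41.7, 47.7 and 2.68 and Apoe at 52.8, 77.9 and 8.98 in microglia 1, microglia 2 and total cells 1, and both were microglia-only at equal length. Spp1, osteopontin, had no peak in any list.

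Signalling proteins downstream of TREM2 and Fc receptors differed widely at their ends and less over the whole gene. All of 20 but 2 were marked in each microglia list (18 and 18), and 8 and 7 in total cells. Above the share of all genes this was 45.1 ± 5.72 and -0.767 ± 1.53 points (SD, n = 2, exact permutation p = 0.333), a difference of 45.8 points, and 52.7 at equal length. It was 31.1 with windows of 5 kb and 20.6 over the gene body and 2 kb around it, where the ubiquitous list had 28.1 and the macrophage class 49.8. Microglia-only members were 8, against 5.73% of all genes, and again 8 at equal length, against 3.82%. Syk, the kinase that TYROBP recruits, was one, at percentile 54.8 and 61.5, although total cells had 646 and 405 bp of peaks inside its body. Blnk, an adaptor below SYK, had 4362 and 6443 bp of its body covered in microglia and 0 in both total cell lists. Hcst (87.7 and 88.7), Was (75.9 and 93.1), Rac2, a GTPase of blood cells (60.4 and 63.6), and Pik3cg, a PI3 kinase of leukocytes (34.3 and 69.8), were called too. Inpp5d, the phosphatase SHIP1 that opposes this pathway, was present in all 4 lists at its ends, yet 14 of its merged regions were microglia-only, and peaks covered 15165 and 20507 bp of its body in microglia and 4599 and 2699 bp in total cells.

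Transcription factors of the lineage and inflammatory genes were intermediate. Of 24 factors, 17 and 21 were marked in microglia and 12 and 13 in total cells. Spi1, which encodes PU.1, was in all 4 lists at 79.4, 83.7, 67.8 and 50.7, as was Mef2a. Microglia-only were 5 (20.8%, with 5.73% of all genes). Irf5, an interferon regulatory factor of macrophages, was highest at 99.2 and 99.0, from a peak 2100 and 2151 bp wide whose midpoint lay at -3052 and -3015 bp from the start. Total cells 1 had 961 bp of peaks inside Irf5, and with windows of 1 kb it was not called. Bhlhe41 (68.8 and 78.8), Runx1 (31.3 and 36.3) and Cebpb (20.7 and 19.2) were also among them, and Cebpb and Runx1 lost the call at equal length. Of 24 inflammatory genes, 20 and 20 were marked in microglia and 13 and 10 in total cells. The microglia-only members were 6 of 24, against 5.73% of all genes, and included Nlrp3, Tlr7, Nos2, Tnf and Il1b. Nlrp3, the inflammasome sensor, had a peak over its start at percentile 58.0 and 87.6 and another at 13405 and 13646 bp into the gene. Tlr7, a receptor of single-stranded RNA, stood at 68.8 and 71.8. The cytokine gene Tnf (12.2 and 51.7) was not called at equal length, and the peak near Il1b (81.4 and 73.9) was centred at -2336 and -2224 bp from its start and was part of no microglia-only region. Il18, Il1a and Pycard were in all 4 lists and Il6 in none. The total cell peaks of Il1a covered 0 bp of its body and lay more than 2 kb from its RefSeq start. Pycard was total-cell-only at equal length.

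Interferon response genes did not separate the preparations. Of 16, 15 and 16 were marked in microglia and 16 and 15 in total cells, 14 were in all 4 lists, and the one-preparation counts were 0 with all peaks. Stat2 stood at 43.4 and 51.1 in microglia and 96.8 and 68.5 in total cells, and Irf9 at 74.3, 84.7, 72.6 and 22.5. Lysosomal genes were marked in 18 and 19 of 20 in microglia and 17 and 15 in total cells, with 14 in all 4, Ctsh and Hexa for example. Their difference above all genes was 5.82 points, 12.7 at equal length and 15.7 with the higher-scoring 50% of peaks (exact permutation p = 0.333 for each), while that of the interferon list was -6.68. Of the lysosomal list, 1 member was microglia-only, beside 5.73% of all genes, and 0 were total-cell-only.

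Genes of glycolysis and lactate handling leaned to microglia with all peaks and less so at equal length. Of 26, 19 and 20 were marked in microglia and 16 and 13 in total cells. Their share above all genes was 30.1 ± 3.0 and 17.5 ± 3.10 points (SD, n = 2, exact permutation p = 0.333), a difference of 12.6 points that was 4.06 at equal length (exact permutation p = 0.667). Microglia-only were 5 (19.2%, against 5.73% of all genes), the enzymes Tpi1, Pgam1, Eno2, Pkm and the regulator Pfkfb4. Pkm (gene 18746, chr9:59656576-59679372) encodes pyruvate kinase M, which makes pyruvate in the last step of glycolysis. Its only peak lay at chr9:59655990-59656328 in microglia 1 and chr9:59655990-59656349 in microglia 2, centred at -417 and -407 bp from the start, at percentile 68.4 and 79.8, and the call held in 8 of 8 other ways of counting, although its window overlaps that of another gene. Pgam1 stood at 41.7 and 84.6. Tpi1 (10.9 and 45.5) and Eno2 (22.8 and 36.9) had low peaks in microglia 1 and were not called at equal length, and Pfkfb4 had peaks of all 4 lists near its start. Ldha, lactate dehydrogenase A, had no gene-end peak because its RefSeq start lies inside the outer annotated end, but a peak centred 1009, 972 and 718 bp after its RefSeq start was listed in microglia 1, microglia 2 and total cells 1, at percentile 48.4, 27.5 and 10.3. Hk3 and Pfkl were in all 4 lists.

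Oxygen sensing and mitochondrial genes showed smaller or unsteady differences. Hypoxia genes were marked in 16 and 18 of 20 in microglia and in 15 and 8 in total cells, so that total cells 1 and 2 differed more from each other than total cells 1 did from microglia. Without total cells 2 the difference of 20.8 points was 6.90, and without total cells 1 it was 34.7. It was 10.2 at equal length, 8.80 with windows of 1 kb and -9.28 with the higher-scoring 50% of peaks. Vhl, which targets HIF for destruction, was the only microglia-only member of 20, at 59.9 and 81.4, a share no higher than the 5.73% of all genes. Hif1a had a peak near its start in all 4 lists, at 92.2, 94.0, 88.6 and 92.3, which the gene-end window missed because the annotated end lies further out. TCA cycle and respiratory chain genes were marked in 16 and 17 of 21 in microglia and 17 and 14 in total cells, with 13 in all 4 lists. Mdh2, a malate dehydrogenase, was among 2 microglia-only members (9.52%, against 5.73% of all genes), at 38.3 and 54. Sucla2 alone was total-cell-only (4.76%, against 1.88% of all genes), at 57.2 and 22.5. Histone acylation enzymes were marked in 13, 17, 14 and 10 of 18, with the acetyltransferase genes Ep300 and Kat5 in all 4 lists. Sirt7 alone was microglia-only (5.56%, no higher than the 5.73% of all genes), at 12.2 and 3.30, and lost the call at equal length. The difference of 9.99 points for these enzymes was 2.93 without microglia 2, 17.1 without microglia 1, 2.46 without total cells 2 and 17.5 without total cells 1.

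Among 24 genes of Alzheimer risk and amyloid processing, 13 and 17 were marked in microglia and 14 and 8 in total cells. The difference of 9.99 points (exact permutation p = 0.667) was 1.07 without total cells 2, 18.9 without total cells 1 and 5.70 without microglia 2, and it was 0.0477 with windows of 1 kb and 6.46 at equal length. Microglia-only were 5 (20.8%, and 5.73% of all genes). Psenen, a subunit of gamma-secretase, had a peak over the gene at 64.1 and 77.5 and kept its call in 8 of 8 other ways of counting. Cass4, a docking protein, had 3747 and 6231 bp of its body covered in microglia and 0 in total cells, and Ptk2b, a calcium-activated kinase, 8021 and 12507 bp against 1261 and 0. App, the amyloid precursor, was called from peaks at percentile 14.1 and 35.0 but carried peaks of all 4 lists inside its body and kept the call in 1 of 8 other ways, and Cd2ap in 3 of 8. Sorl1, a sorting receptor of the precursor, was total-cell-only from peaks at 0.822 and 9.54 and was in no total-cell-only region. Picalm, an endocytic adaptor, was in all 4 lists.

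Ubiquitous genes, which serve as a reference, also differed. Of 20, 17 and 18 were marked in microglia and 13 and 9 in total cells, a difference above all genes of 25.8 points, and of 15.2 at equal length. With all peaks and at equal length, the homeostatic list had 24.6 and 21.0, the disease-associated list 26.7 and 28.5, the inflammatory list 28.7 and 31.5 and the myeloid factors 20.4 and 16.9. The first 3 of these lay within 3 points of the ubiquitous list with all peaks and above it at equal length. The glycolysis list, at 12.6 and 4.06, lay below the ubiquitous list in both settings. The microglia-only members were 5 of 20, beside 5.73% of all genes, and included Ppia, Polr2a, Psmb4 and Eef2, of which Eef2 overlapped no microglia-only region, and Tfrc was total-cell-only. Their part in the other lists' differences was not tested.

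Markers of cells other than microglia made a smaller share than all genes did, list by list. Astrocyte genes had 3, 4, 4 and 2 of 16 marked, oligodendrocyte genes 2, 3, 2 and 1 of 17, vascular genes 2, 5, 4 and 2 of 16, ependymal and choroid plexus genes 2 of 10 in every list and genes of other tissues 0, 2, 2 and 0 of 16. Other leukocytes, which CD11b beads can also take, had 2, 3, 0 and 1 of 16 marked. The T cell genes Cd3e, Cd4 and Cd8a were in no list, and Ms4a1, the B cell antigen CD20, was microglia-only at percentile 10.9 and 11.6. Mbp, myelin basic protein, was microglia-only at its ends, at 83.0 and 94.8, yet carried peaks in all 4 lists along its body, 11147, 14734, 4558 and 3120 bp.

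Total-cell-only genes among the lists were few and included neuronal genes. Of 30 neuronal markers, 3 were called, against 1.88% of all genes, and 4 at equal length, against 3.97%. Map2 (gene 17756, chr1:66175202-66442583) had a peak over its start in both total cell lists, chr1:66174889-66175656 at percentile 96.5 and chr1:66174931-66175265 at 80.6, with 3 and 2 more peaks inside the gene and none in microglia. Camk2g, a calmodulin-dependent kinase, was called at 95.6 and 91.7 from a peak at its end on the side of the lower coordinate, while microglia had peaks in its body (1642 and 3642 bp). Dnm3 stood at 94.0 and 86.7, with body peaks in all 4 lists. Eno2, a glycolytic enzyme of neurons, is a member of both lists and was microglia-only. Thy1, a surface protein of neurons, was in all 4 lists, where its best peak ranked 1815 of 29947 and 2695 of 41783 in microglia and 5 of 32967 and 7 of 22807 in total cells. Each list held 4 peaks at Thy1, and each of the 4 WT lists of the series held 0. The transgenes carry the Thy1 promoter, and the lists do not separate their copies from the gene itself, so Thy1, although counted among the 30, is not read here as a neuronal marker. Emcn, an endothelial sialomucin, was total-cell-only from low peaks, at 2.68 and 20.8.

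The 10 highest microglia-only genes by mean percentile were Sppl3, Rnf180, Irf5, Gm5796, Ccdc88b, Slc2a9, Ccdc80, Gm7102, Cdk5rap3 and Tbc1d22a. Gm5796 (97.1 and 99.0), Ccdc88b, a protein of leukocytes (98.4 and 97.2), Cdk5rap3 (95.1 and 97.0) and Gm7102 (95.2 and 97.0) had no peak of total cells in the gene or within 2 kb. Gm5796 and Gm7102 are predicted genes that can have close copies, and their calls are reported as uncertain. Rnf180, Slc2a9 and Ccdc80 overlapped no microglia-only region, and Sppl3, a protease of the Golgi (99.6 and 99.8), Irf5 and Tbc1d22a had total cell peaks in their bodies. In all, 1161 of the 1255 calls (92.5%) rested on a microglia-only region, and 829 (66.1%) had no peak of total cells anywhere in the gene or within 2 kb. The highest microglia-only region lay in the body of Ppfia4 (chr1:134302630-134303876), which encodes a liprin, at 99.8 in both lists. Others among the 10 highest were in Ehd4, Kdm4a, Arl10, Sirpa, Dusp13 and Slc7a7. Sirpa, the receptor of the "do not eat me" signal CD47, had 8 and 11 peaks over 4376 and 7881 bp in microglia and none in total cells.

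**Figure D5:**
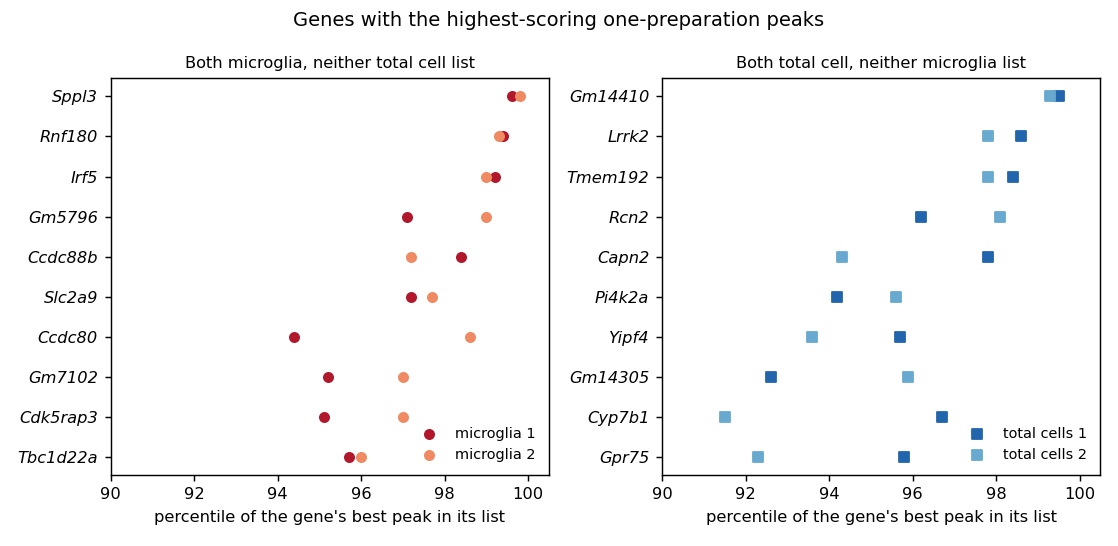
Score percentile of the best gene-end peak (horizontal axis, 100 the highest of its list) in each library for the 10 microglia-only genes (left, circles) and the 10 total-cell-only genes (right, squares) with the highest means. Points run from 94.4 to 99.8 on the left and from 91.5 to 99.5 on the right, a range that the choice of the highest genes fixes.

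The 10 highest total-cell-only genes were Gm14410, Lrrk2, Tmem192, Rcn2, Capn2, Pi4k2a, Yipf4, Gm14305, Cyp7b1 and Gpr75. The predicted genes Gm14410 and Gm14305 are uncertain for the same reason of close copies. Lrrk2 (gene 66725, chr15:91672791-91816124), a kinase mutated in familial Parkinson disease, had a peak over its start at chr15:91672711-91673603 and chr15:91673029-91673582, at percentile 98.6 and 97.8, and 2 more inside the gene in each total cell list. Microglia had none in it. Tmem192, a lysosomal membrane protein, had its peak over the start at 98.4 and 97.8. Cyp7b1, an oxysterol hydroxylase, stood at 96.7 and 91.5 and Yipf4 at 95.7 and 93.6, both without microglial peaks in the gene. Capn2, Rcn2 and Pi4k2a did have microglial peaks in their bodies. Of the 412 calls, 368 (89.3%) rested on a total-cell-only region and 239 (58.0%) had no microglial peak in the gene or within 2 kb. The 5 highest total-cell-only regions, at 99.6 or more in both lists, lay at Brox and Aida (chr1:183299138-183299575), Zc3h7a, Tmem267, Tusc3, and Cmss1 and Filip1l, and were 260 to 576 bp wide.

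Whole gene bodies were ranked by covered bases, among genes with 0 in the other preparation. The genes with the most covered bases in microglia and 0 in total cells were Blnk, Ptprc, Cass4, Sirpa, Fgf13, Ptger3, Ptgs1, Unc13a, Khdrbs1 and Bend6. Ptgs1, cyclooxygenase 1, had 3018 and 6615 bp, Ptger3, a receptor of prostaglandin E2, 3389 and 6258 bp and Fgf13, a fibroblast growth factor homologue of neurons, 4882 and 7352 bp. The reverse set was Ptprd, Prex2, Nlgn1, Myrip, Grb14, Sema5a, Cdh2, Plekhg1, Bicc1 and Nhsl1. Ptprd, a synaptic adhesion phosphatase, had 4749 and 2194 bp in total cells, Nlgn1, neuroligin 1, 4195 and 1124 bp, and Cdh2, N-cadherin, 2077 and 1623 bp. Longer genes offer more bases to peaks, so this ranking favours long genes, and the sums are better compared between libraries within a gene. Microglia-only genes had a median length of 15.9 kb and total-cell-only genes 41.3 kb, against 17.2 kb over all genes and 23.6 kb in genes of all 4 lists.

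Some genes held many microglia-only regions. At least 1 lay in 4079 genes and 5 or more in 220, with 21 each in Nav3 and Tanc2, 18 in Snx29, 16 in Elmo1, an engulfment protein, 14 in Inpp5d and 14 in Tbxas1, thromboxane synthase. Inpp5d is the shortest of the 10 leading genes at 100 kb, and Nav3 the longest at 774 kb, against a median of 17.2 kb over all genes. Counts of all merged regions per gene are not given here, so clustering beyond gene length was not tested. Total-cell-only regions lay in 1920 genes and 5 or more in 26, led by Syne1 with 12, a nuclear envelope protein, and Zbtb20 with 10, a transcription factor of brain development. Peaks covered 317 and 2262 bp of Syne1 in microglia and 11411 and 6917 bp in total cells. These genes were picked by their count of regions after the values were seen.

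Where strand was known, most one-preparation genes were marked at the start. Among 992 microglia-only genes, 64.4% had the peaks at the start only, 22.2% at the other end only and 12.5% at both, and among 329 total-cell-only genes the shares were 75.1%, 14.9% and 6.08%. Genes of all 4 lists had 80.3% at the start only and 8.72% at the other end only. With windows around RefSeq starts alone, 961 of 17492 genes (5.49%) were microglia-only and 332 (1.90%) total-cell-only.

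The WT libraries of the series entered none of these counts. Called by the same rule there, 1208 genes were microglia-only and 753 total-cell-only, of which 329 and 142 were also called in 5XFAD mice. These made up 26.2% of the 5XFAD and 27.2% of the WT microglia-only genes, and 34.5% and 18.9% of the total-cell-only genes. Of the 5XFAD microglia-only genes, 19 had the opposite call in WT mice, and of the total-cell-only genes 3. The difference between the genotypes was not tested.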

How the data were processed

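H4K12la CUT&Tag peak lists of 4 mouse libraries were used, 2 of 5XFAD microglia and 2 of 5XFAD total cells, grouped by title. Per the submitters' processing notes, the authors used fastp 0.19.6, Bowtie2, deepTools and GRCm38 (mm10). How peaks were called is not stated in these sources. Each deposited list belongs to 1 library, with a whole-number score of unstated unit and a lowest value of 20. Here the deposited score served for ranks and thresholds inside each list. Without read counts, depth and counting precision are unknown. Starts were read as counted from 0 and are printed from 1.

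Genes (21887 that code for protein, on the autosomes, X and Y), starts and promoters came from RefSeq GRCm38.p6 tables; 17492 genes had a promoter entry. The members and gene lists (431 distinct genes, all matched) were chosen with earlier results of these data known. Calls are presence patterns over 4 lists. Values per library were compared with the exact two-sided permutation test over 6 assignments. Named genes were, per list, up to 6 one-preparation members by mean percentile and 4 others in list order, and the 10 highest genes, regions and covered bodies of each preparation, with checks that included Pkm, Ldha, Hif1a, Thy1, App, Ptprc, Map2 and Camk2g. Some genes that this rule names are not reported here; other names are said to be picked later. Alternatives were equal list length, score filters, other windows and overlaps, and leaving out each library. A call kept in other ways of counting refers to 8 of these. Whether replicate numbers pair the libraries is not stated. The difference of replicate 1 and 2 correlated at -0.05 between preparations over genes. That value cannot decide it, since list length also differs between replicates. No 2 lists shared more than 126 identical intervals. Overlaps were tested on simulated data (0 mismatches in 2000 queries). Of 200 genes planted as microglia-only among 21887, 83.5% were recovered in simulated lists. Those lists were drawn independently and the planted genes at set detection rates, which largely fix that share. It checks the code and does not measure sensitivity in these data. Python 3.11.15, numpy 2.4.6, scipy 1.17.1 and matplotlib 3.10.9 were used.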

Additional observations from a re-analysis of the deposited data

How the results depend on the processing

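Depth is unknown, so list length and the amount of marked chromatin cannot be told apart. No test of 2 libraries against 2 can pass 0.05 under any setting, so the values below show direction and size only. Leaving out a library loosens the rule. Equal length removes no peak of total cells 2, and the calls it adds had peaks of the other preparation in the full lists. Beyond these points of design, the cause of these changes was not tested.

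Microglia-only genes (1255) numbered 496 among genes whose windows overlap no other and 829 with no total cell peak in the gene or within 2 kb, an alternative chosen after seeing the data. Leaving out each library gave 1336 to 2551. Total-cell-only genes (412) numbered 870 at equal length, 663 with the higher-scoring 50% of peaks, 246 with windows of their own and 239 with no microglial peak in the gene (likewise chosen after seeing the data), and 447 to 975 without 1 library. Microglia-only regions (9852) numbered 5998 at equal length and 5340 with the higher-scoring 50%, and 11386 to 20406 without 1 library. Total-cell-only regions (3267) numbered 1962 with the higher-scoring 50% and 1379 with scores of at least 50, and 3435 to 12124 without 1 library.

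Beside the values in the report, the difference of the homeostatic list (24.6 points) was 14.4 and that of the inflammatory list (28.7) was 18.6 with windows of 5 kb, and with the higher-scoring 50% the glycolysis list (12.6) was 7.83 and the ubiquitous list (25.8) 13.2. Several differences changed sign. The gene-end share of peaks (-1.12 points) ran from -2.93 to 0.683 without 1 library, and the number of genes with a gene-end peak (1461) was -46.0 at equal length. The interferon list (-6.68 points) was 3.17 with windows of 1 kb and the hypoxia list (20.8) was -9.28 with the higher-scoring 50%. The TCA cycle list (-1.91) was 0.210 at equal length, 5.36 with the higher-scoring 50% and -5.48 to 1.65 without 1 library. Astrocyte markers (-3.55) were 3.34 at equal length, 6.30 with windows of 1 kb and 10.7 with the higher-scoring 50%. Oligodendrocyte markers (-0.793) were 6.09 at equal length, 8.27 with windows of 5 kb, 4.41 over gene bodies, 4.10 with the higher-scoring 50% and -1.90 to 0.312 without 1 library. Vascular markers (-3.55) were 6.46, 10.7 and -8.88 to 1.78 at equal length, with the higher-scoring 50% and without 1 library. Other leukocytes (5.82) ran from -0.880 to 12.5 without 1 library.

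With the replicate number as a block, the exact sign-flip test, whose smallest p is 0.500, left the differences at 343 bp for median width (p = 0.500) and 17.5 Mb for covered length (p = 0.500), and at -1.12 points for the gene-end share and 1461 genes with a gene-end peak (p = 1 for both). The numbers mark no known pairing.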
